A study of Agaricus bisporus with 8 samples.

Results

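The genes described here are the 54 genes of the button mushroom Agaricus bisporus with a low normalized ratio of drought over irrigated signal on the 4 arrays of mycelium watered without riboflavin. A gene counted as expressed if its net signal, the median spot signal minus the local background, reached 40 in at least 2 of the 16 channels, and 449 of the 10413 genes on the array did so. A member was an expressed gene with a deposited log2 ratio of drought over irrigated below 0 on each of the 4 water arrays and a mean over them of -0.6 or lower. The 54 members make up 12% of the expressed genes. Since the water arrays chose the members, the water ratios are given as a description, and tests are given for the riboflavin contrasts only. The model behind those tests was fitted to all 8 arrays, so the water arrays also enter its estimate of the spread.

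Agaricus bisporus is a litter-decomposing basidiomycete whose mycelium, a network of hyphae, takes up water and nutrients from plant remains. Drying lowers the water available to hyphae, and fungi are known to answer with compatible solutes such as mannitol and trehalose and with chaperones. Riboflavin is the precursor of the flavin cofactors FMN and FAD, which carry electrons in respiration and in many oxidoreductases. Each of the 54 members was found by locus tag in the gene table of the assembly Agabi_varbisH97_2 and was listed as protein coding, but none has a gene symbol there, so the members are named by locus tag and no function is given to them.

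The mycelium was of A. bisporus var. bisporus strain H97, grown from agar on hay in closed chambers and irrigated for 3 weeks with water alone or with water containing 50 µM riboflavin. Irrigation then went on or was stopped (drought), and mycelium was taken on day 3 or day 7. Each array carried drought RNA in one dye and irrigated RNA of the same day and supplement in the other, so that the 2 supplements and 2 days gave 4 groups of 2 arrays. Drought RNA carried Cy3 in replicate 1 and Cy5 in replicate 2 of every group, so replicate number cannot be told apart from dye orientation. All 4 groups share the strain and the chamber culture on hay. RNA was taken from whole mycelium, so fewer hyphae containing a transcript and less transcript per hypha cannot be told apart.

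Signals were low over the whole series. Between 226 and 720 of the 10413 genes were well above background in the irrigated channel of an array, and between 322 and 615 in the drought channel. Across the 449 expressed genes, the deposited ratios of replicate 1 and replicate 2 correlated at 0.372 (water day 3), 0.586 (water day 7), -0.392 (riboflavin day 3) and -0.458 (riboflavin day 7). The riboflavin replicates thus opposed each other for many genes. The dyes were kept as labelled. The direction of the riboflavin ratios rests on those labels, which were not checked by another measure, so the main result is also given with the riboflavin replicate 2 arrays turned. Water day 3 replicate 2 stood apart, with its drought channel brighter than its irrigated channel before normalization for 389 of the 449 expressed genes, against 71 to 315 on the other arrays. The number of arrays limits the precision of every value below.

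The members' ratios differed widely in size between the 4 water arrays. Their median log2 ratio was -0.57 on water day 3 replicate 1, -3.88 on water day 3 replicate 2, -1.27 on water day 7 replicate 1 and -1.11 on water day 7 replicate 2. Water day 3 replicate 2 gave the lowest of the 4 ratios for 49 members, while water day 3 replicate 1 gave the ratio nearest to 0 for 42. The median over members of the mean water ratio was -1.63, against -0.056 over all expressed genes. Without water day 3 replicate 2 this median was -0.92, and 43 of the 54 members still had a mean of -0.6 or lower on the other 3 arrays. Ratios of -0.6 or lower on each of the 4 water arrays were found for 19 members, and of -1 or lower for 3. By the parts of the rule itself, 78 of the 449 expressed genes (17.4%) were below 0 on all 4 water arrays and 66 (14.7%) had a mean of -0.6 or lower. The rule reads the normalized ratios. Before normalization, the drought net signal was above the irrigated one for 10 and 7 of the 54 members on water day 3 and for 7 and 0 on water day 7 (replicates 1 and 2).

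**Figure D1:**
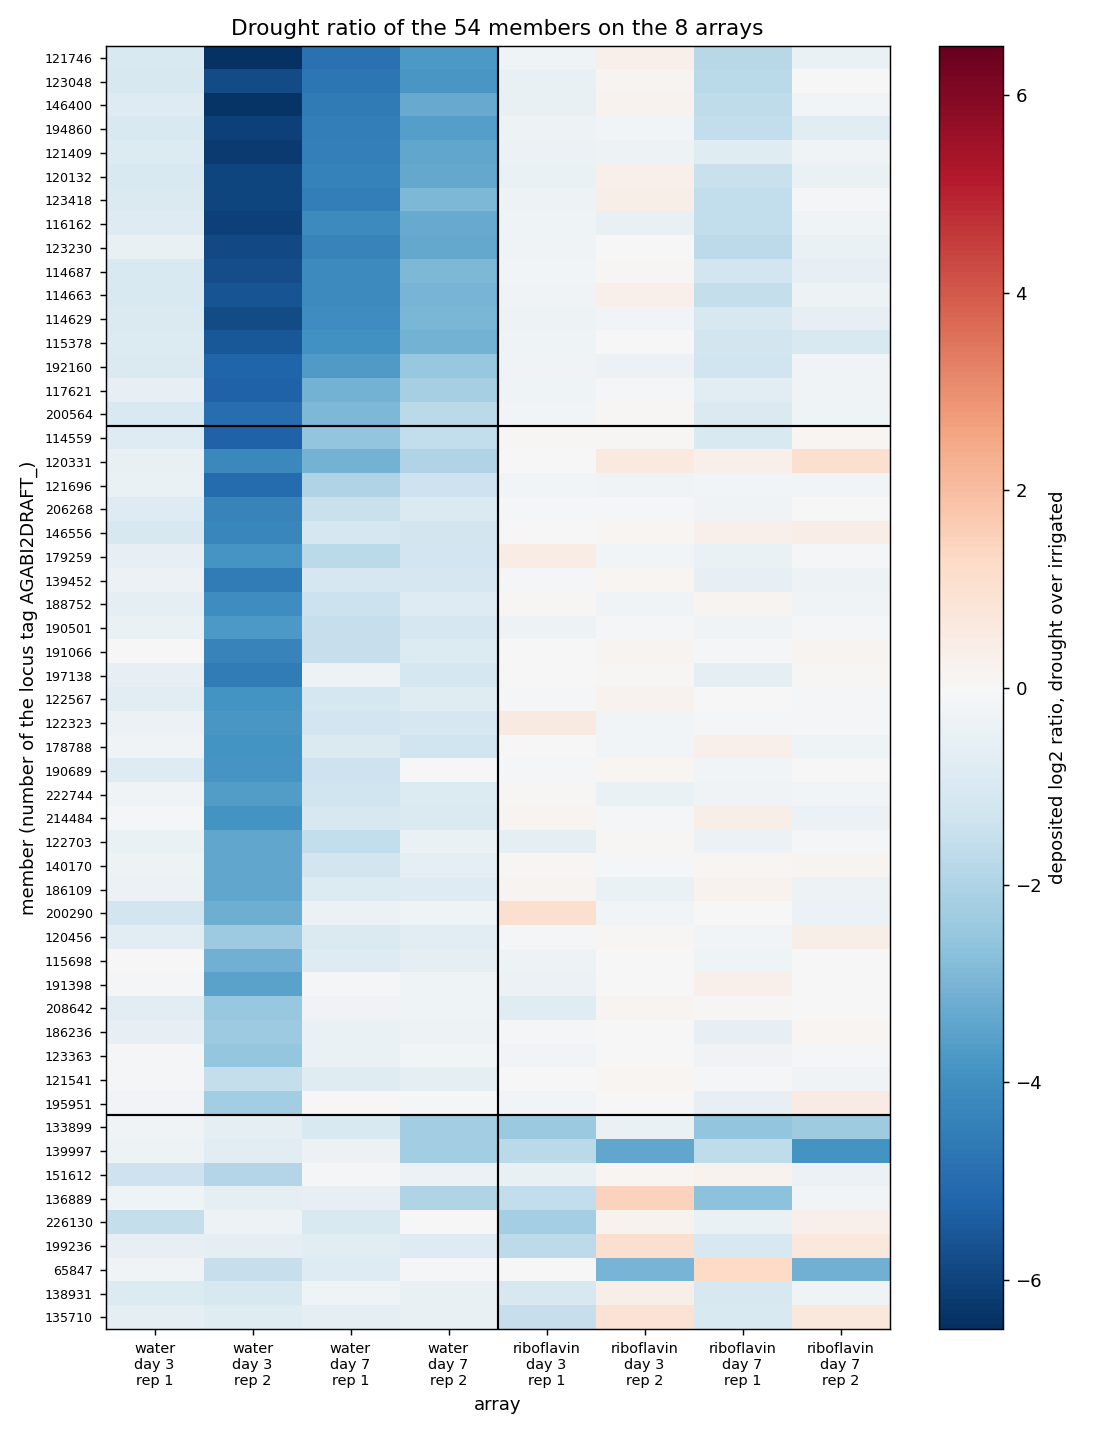
Heat map of the deposited log2 ratio (drought over irrigated, colour) of the 54 members (rows, named by the number of the locus tag) on the 8 arrays (columns). Black lines separate water from riboflavin arrays and the sets of 16, 29 and 9 members described in the text. All members are below 0 on the water arrays by the rule. Among the water arrays, water day 3 replicate 2 is darkest for 49 of the members. The riboflavin arrays are pale for most of the upper 45.

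Across the 16 channels the members fell into 3 sets, drawn after their values were seen. The first holds 16 members whose normalized level correlated at 0.95 or more with that of AGABI2DRAFT_121746, the member with the lowest mean water ratio. The second holds 29 further members whose highest net signal lay in the irrigated channel of water day 3 replicate 2. The third holds the 9 members that were brightest in another channel. In all, 45 of the 54 members had their highest net signal in the irrigated channel of water day 3 replicate 2, compared with 9 of the 395 other expressed genes, and 152 of those 395 were instead brightest in the drought channel of the same array. The rule used these signals, so this count is a description.

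The 16 members of the first set were grouped because their levels run alike. They are AGABI2DRAFT_121746, AGABI2DRAFT_123048, AGABI2DRAFT_146400, AGABI2DRAFT_194860, AGABI2DRAFT_121409, AGABI2DRAFT_120132, AGABI2DRAFT_123418, AGABI2DRAFT_116162, AGABI2DRAFT_123230, AGABI2DRAFT_114687, AGABI2DRAFT_114663, AGABI2DRAFT_114629, AGABI2DRAFT_115378, AGABI2DRAFT_192160, AGABI2DRAFT_117621 and AGABI2DRAFT_200564. The threshold of 0.95 fixes that they resemble one another, so this likeness is no result, and the 16 channels it was computed over share 8 arrays and their dyes. Mean water ratios of the 16 lay between -3.997 and -2.66, with a median of -3.54. All 10 members with the lowest mean water ratio belong to this set.

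AGABI2DRAFT_121746, with the lowest mean water ratio, is given as an example of the set. In the irrigated channel its net signal was 345 and 2931 on water day 3 (replicates 1 and 2) and 1004 and 379.5 on water day 7. With riboflavin the irrigated net signal was 133 and 18.3 on day 3 and 133.5 and 25.8 on day 7. The irrigated channel was therefore brightest on the 4 water arrays, and the lowest of these lay above the highest riboflavin value. In the drought channel the net signal was 112.5, 71 and 23 on the first 3 water arrays (day 3 replicates 1 and 2 and day 7 replicate 1) and 5.5 on day 7 replicate 2, and on the riboflavin arrays it was 76.5, 15, 26.8 and 1.5 in the same order. Its deposited log2 ratios were -0.97, -6.43, -4.85 and -3.74 with water (mean -3.997 ± 2.30, SD, n = 4 arrays). With riboflavin the ratios were -0.27, 0.32, -1.82 and -0.44 (mean -0.55 ± 0.90, SD, n = 4 arrays). Net signals are not normalized between arrays. In AGABI2DRAFT_123230 of the same set, not all irrigated water signals lay above the riboflavin ones. Its irrigated net signal was 84 on water day 3 replicate 1, below 120 and 116 on the riboflavin replicate 1 arrays.

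The water day 3 replicates differed most in the irrigated channel. For the 16 members the median irrigated net signal was 211.5 on replicate 1 and 2240.5 on replicate 2, while the median drought net signal was 75.3 and 77.8. In normalized level (log2) the irrigated median was 8.05 and 11.61 and the drought median 7.21 and 6.07, so after normalization the channels differed between the replicates in opposite directions. The members' median ratio was -0.96 on the first of these arrays and -5.84 on the second. On water day 7 the median irrigated net signals were 786 and 293, and the drought channel was well above background for 2 of the 16 members on replicate 1 and for 0 on replicate 2. The size of the day 7 ratios is therefore a bound. Bounds used the gene's normalized drought level or the lowest level of any gene well above background in the drought channel, whichever was higher. On water day 7 the irrigated level was at least 2.78-fold higher for AGABI2DRAFT_200564 and at least 7.68-fold higher for AGABI2DRAFT_123048. The other bounds of the set lay between them. AGABI2DRAFT_194860 and AGABI2DRAFT_116162 had a drought signal well above background on replicate 1 but not on replicate 2. No bound was computed for this pair, and the size of their replicate 2 ratios is limited in the same way.

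With riboflavin the same 16 members were dim in both channels of the replicate 2 arrays and brighter in the irrigated channel of the replicate 1 arrays. Their median irrigated net signal was 102 on day 3 replicate 1 and 98.8 on day 7 replicate 1, with all 16 well above background. On the replicate 2 arrays it was 22 and 25.9, with 0 of the 16 above background on either, so their ratios there rest on signals near the background. Median ratios of the set were -0.29 and 0.055 on riboflavin day 3 and -1.49 and -0.31 on day 7, replicate 1 first. On day 7 replicate 1, 13 of the 16 stood at -1 or lower. The drought channel of that array had a median net signal of 26.4, with 5 of the 16 well above background, so most of these ratios are limited by the background. In 11 members of the set the drought channel was dim on both riboflavin day 7 arrays. Their mean irrigated level was 1.12-fold to 1.55-fold higher, computed as the bounds above. That mean includes replicate 2, where their irrigated channel was not well above background, so these values are no lower bounds. Fitted changes of these members over both riboflavin days had large errors, as for AGABI2DRAFT_121746 with a log2 change of -0.35 ± 0.85 (SE, 4 arrays, adjusted p 0.963 by limma), and none of the 16 was called.

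**Figure D2:**
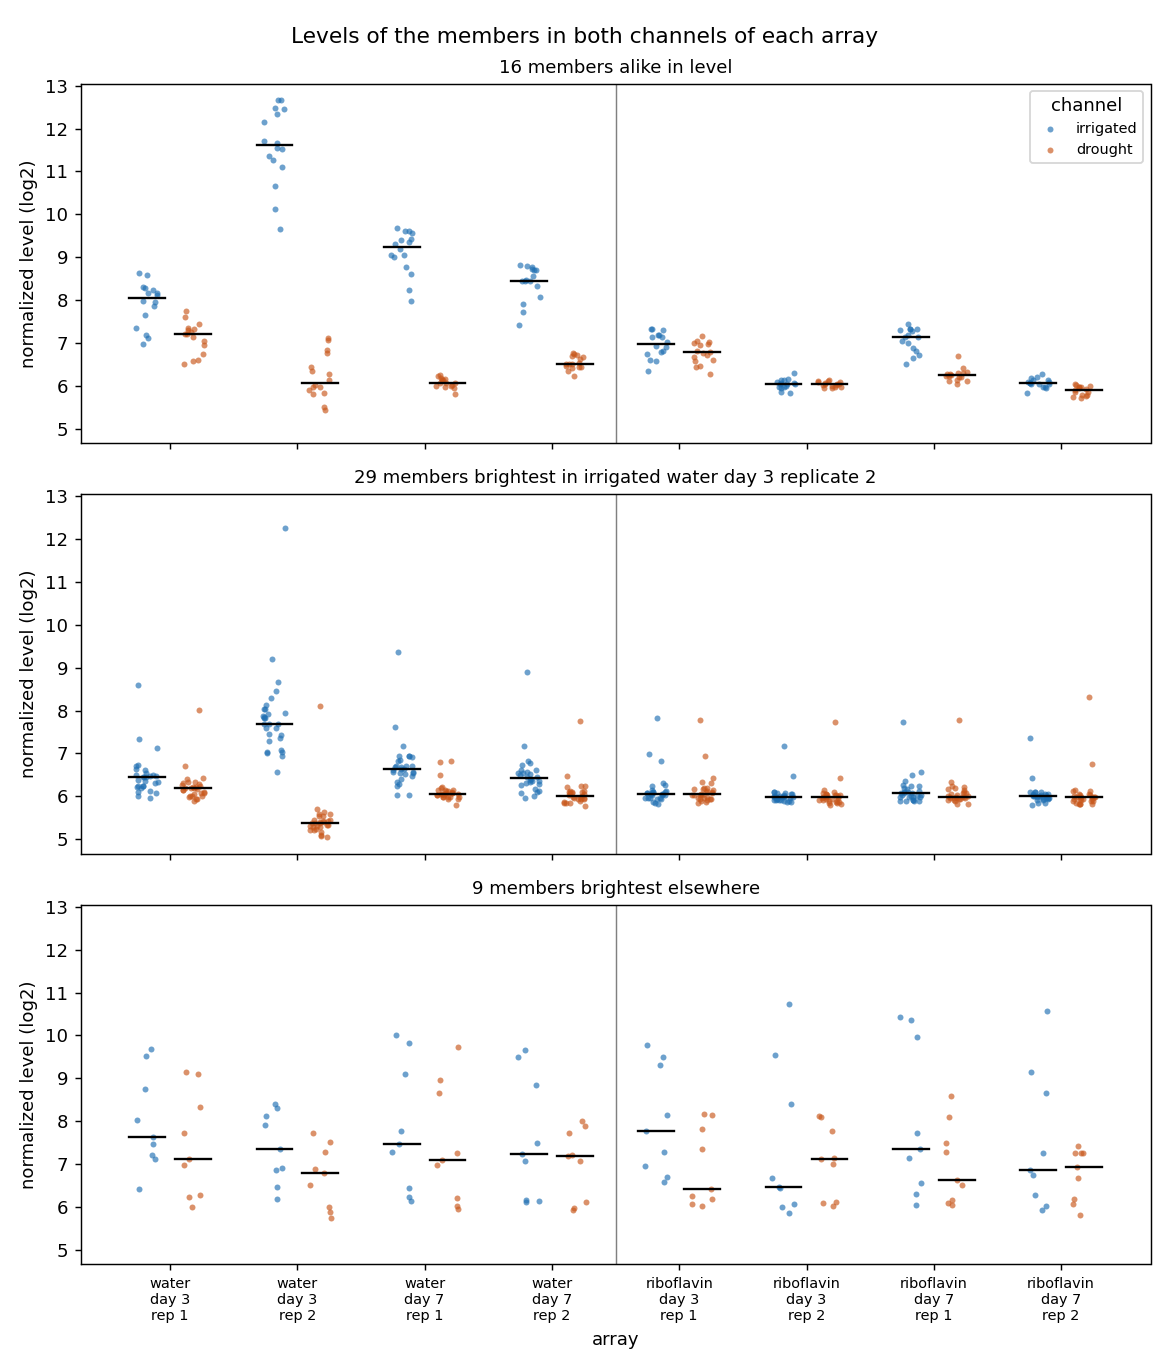
Normalized level (log2, vertical axis) of each member in the irrigated and drought channels of the 8 arrays (horizontal axis), with 1 panel for each of the 3 sets. Points are members and black bars are set medians. The 16 members alike in level reach a median of 11.61 in the irrigated channel of water day 3 replicate 2 and lie near 6 in both channels of the riboflavin replicate 2 arrays.

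The 29 members of the second set had lower median irrigated signals than the first. They were chosen by their brightest channel, the irrigated one of water day 3 replicate 2. Their high irrigated signal and low ratio on that array are thus partly fixed by the choice and are given as a description. Their median irrigated net signal was 155 on water day 3 replicate 2, 29 on replicate 1 of that day, and 45.5 and 40 on water day 7. Their median ratio was -3.76 on water day 3 replicate 2 and -0.42 on replicate 1, and all 29 had their lowest water ratio on replicate 2. On all 4 water arrays the drought channel of 23 of the 29 was not well above background, and the irrigated channel of 17 was not above it on any riboflavin array. Some of the 17, such as AGABI2DRAFT_146556 and AGABI2DRAFT_122323, reached the floor of 40 in irrigated water channels only. Dim riboflavin channels thus follow in part from how these genes counted as expressed. Over all members, water day 3 gave 27 bounds with a median of at least 1.95-fold and a range of 1.31 to 3.79. Water day 7 gave 40 with a median of at least 1.53-fold. Some of them, as the lowest on water day 3 (AGABI2DRAFT_121541), had irrigated signal well above background on 1 of 2 arrays only. Those are no strict lower bounds. For most of the second set the riboflavin ratio is thus a ratio of signals not well above background, and its median of the mean riboflavin ratio was -0.067.

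Within this set AGABI2DRAFT_120331 was measured above background in both channels of all 8 arrays. Its irrigated net signal was 338, 2256, 864.5 and 434 with water, and with riboflavin it was 242, 70, 194 and 71. Its drought net signal was 154, 246.5, 74 and 118.5 with water and 144, 189.5, 132.5 and 305.5 with riboflavin. Irrigated signal exceeded drought signal on each water array and on both riboflavin replicate 1 arrays. On both riboflavin replicate 2 arrays the drought signal was the higher. The brighter channel was thus Cy5 on all 4 riboflavin arrays, so this order cannot be told apart from the dye. Its ratios were -0.49, -4.19, -3.09 and -1.93 with water and -0.04, 0.62, 0.31 and 1.02 with riboflavin, where its fitted change was 0.38 ± 0.66 (SE, 4 arrays, adjusted p 0.933 by limma). It had the highest mean riboflavin ratio of the members.

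The next highest mean riboflavin ratios belonged to dim members of the same set. AGABI2DRAFT_146556 had water ratios of -1.05, -4.22, -1.08 and -1.20 and riboflavin ratios of -0.05, 0.15, 0.33 and 0.41. AGABI2DRAFT_200290 had water ratios of -1.25, -3.19, -0.36 and -0.26 and riboflavin ratios of 1.04, -0.19, -0.03 and -0.40, so day 3 replicate 1 alone lifted its mean above 0. AGABI2DRAFT_140170 and AGABI2DRAFT_122323 had mean riboflavin ratios of 0.068 and 0.053. None of these 4 was well above background in the irrigated channel of any riboflavin array. The member of the set that varied least over the water arrays was AGABI2DRAFT_121541 (-0.07, -1.53, -0.78 and -0.57).

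**Figure D3:**
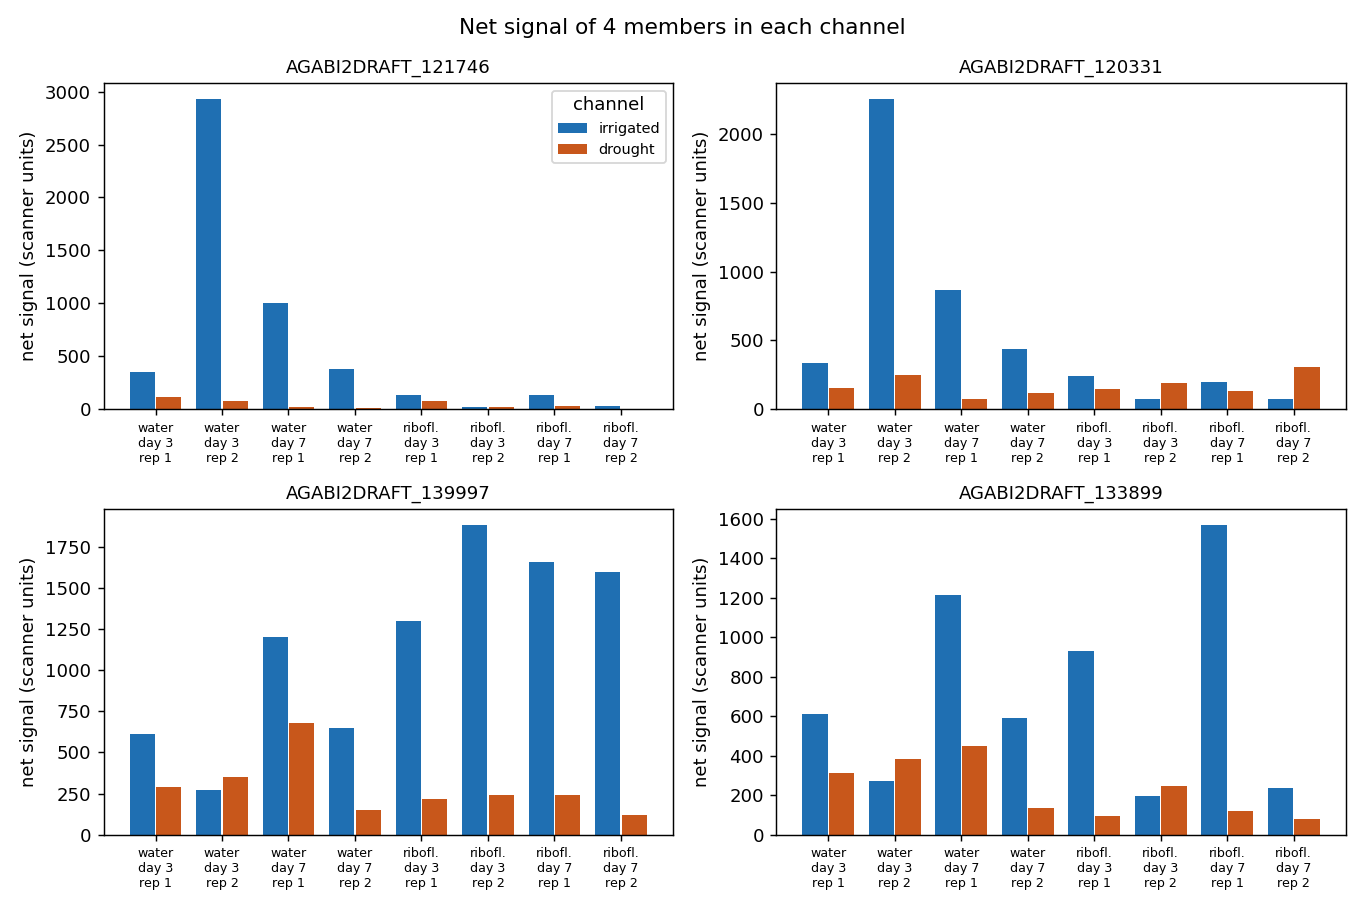
Net signal (scanner units, bars from 0) of 4 members in the irrigated and drought channels of each array, not normalized between arrays and with a separate vertical scale in each panel. AGABI2DRAFT_121746 and AGABI2DRAFT_120331 peak in the irrigated channel of water day 3 replicate 2 (2931 and 2256), whereas AGABI2DRAFT_139997 reaches 1295 to 1882.5 in the irrigated channels of the riboflavin arrays. AGABI2DRAFT_133899 is brightest in the irrigated channel of riboflavin day 7 replicate 1.

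The 9 members of the third set were nearer to 0 with water and spread further with riboflavin. Their mean water ratios lay between -1.02 and -0.61, and their mean riboflavin ratios between -2.65 and -0.12. On water day 3 replicate 2 their sign depended on the normalization. Before it, the drought channel was the brighter on that array for 7 members, all of this set. With each array centred on its median in place of loess, 6 of the 9 had a ratio above 0 there: AGABI2DRAFT_133899 (0.17), AGABI2DRAFT_139997 (0.057), AGABI2DRAFT_136889 (0.18), AGABI2DRAFT_226130 (0.034), AGABI2DRAFT_199236 (0.28) and AGABI2DRAFT_135710 (0.30).

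AGABI2DRAFT_139997 had the lowest mean riboflavin ratio of the members, although AGABI2DRAFT_133899 was lower on both replicate 1 arrays. Its irrigated net signal was 614.5, 270.5, 1200.5 and 645 with water, and with riboflavin it was 1295, 1882.5, 1659 and 1594.5. Its drought net signal was 291, 353, 681 and 151 with water and 216, 239.5, 244 and 117 with riboflavin. The irrigated signals of the riboflavin arrays all lay above those of the water arrays, and its drought signals overlapped. Ratios were -0.35, -0.74, -0.36 and -2.26 with water (mean -0.93 ± 0.91, SD, n = 4 arrays) and -1.74, -3.36, -1.63 and -3.86 with riboflavin (mean -2.65 ± 1.13, SD, n = 4 arrays). Both channels were well above background on all 8 arrays.

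The question of whether the members also respond to drought when riboflavin is supplied was tested by the riboflavin contrasts of the model on all 8 arrays. Over the mean of both days, AGABI2DRAFT_139997 fell, with a log2 change of -2.46 ± 0.17 (SE, 4 arrays, below 0 on 4 of 4 riboflavin arrays, adjusted p 0.0208 by limma). It was the 1 gene called among the 449 expressed genes (0.223%), and so 1 of 54 members. AGABI2DRAFT_133899 came next among the members, with a log2 change of -1.78 ± 0.36 (SE, below 0 on 4 of 4 riboflavin arrays), and did not pass (adjusted p 0.227 by limma). At an unadjusted p under 0.05 there were 42 of the 449 genes and 2 of the members. No gene was called upward (0%).

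The call of AGABI2DRAFT_139997 depended on the fit. Its adjusted p by limma was 0.0735 without the dye term, which is also the replicate block, 0.0956 with the deposited ratios, 0.372 with a random block for each supplement and replicate number, and 0.439 with the riboflavin arrays fitted alone. With the riboflavin replicate 2 arrays turned, the change reversed to 0.51 (adjusted p 0.858 by limma). Under the other alternatives the log2 change lay between -3.08 and -2.42 and the adjusted p by limma between 0.00223 and 0.590. The call was lost without either water day 7 array (0.0924 each) and without any riboflavin array: 0.389 and 0.468 without day 3 replicates 1 and 2, and 0.463 and 0.188 without those of day 7.

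Tested by day, limma called 0 of the 449 expressed genes (0%) on riboflavin day 3, on riboflavin day 7 and for the difference between these days. At an unadjusted p under 0.05 there were 30 genes on day 3, of which 2 were members, 19 on day 7, of which 2 were members, and 8 for the difference, of which 0 were members. The log2 change of AGABI2DRAFT_139997 was -2.14 ± 0.24 on day 3 (adjusted p 0.185) and -2.78 ± 0.24 on day 7 (adjusted p 0.0570; SE, 2 arrays each, limma). The difference between the days was -0.65 ± 0.33 (adjusted p 0.999 by limma). Whether the members' response differed between riboflavin and water was not tested, because the water ratios had chosen the members.

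By sign alone, 11 of the 54 members (20.4%) were below 0 on all 4 riboflavin arrays, where 27 of the 449 expressed genes (6.01%) were. Leaving out an array can only keep or raise this number, and riboflavin day 3 replicate 2 limited it most. Without that array it was 27 of 54 (50%), against 61 of the 449 expressed genes (13.6%) on the same 3 arrays. Without day 3 replicate 1 it was 15 (27.8%, against 8.69%), without day 7 replicate 1 it was 11 (20.4%, against 10.5%), and without day 7 replicate 2 it was 12 (22.2%, against 8.91%). The 11 are 6 members of the first set (AGABI2DRAFT_194860, AGABI2DRAFT_116162, AGABI2DRAFT_192160, AGABI2DRAFT_121409, AGABI2DRAFT_114629 and AGABI2DRAFT_117621), 3 of the second (AGABI2DRAFT_121696, AGABI2DRAFT_206268 and AGABI2DRAFT_190501) and 2 of the third (AGABI2DRAFT_139997 and AGABI2DRAFT_133899). Of the members, 0 were above 0 on all 4, where 37 of the 449 expressed genes (8.24%) were. A mean riboflavin ratio of -0.6 or lower was found for 7 members (13%), close to the share of all expressed genes (66 of 449, 14.7%). These were 3 of the 16 members of the first set, 0 of the 29 of the second and 4 of the 9 of the third. In the second set, 17 members were not well above background in the irrigated channel of any riboflavin array, and some of them counted as expressed through irrigated water channels only.

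The replicates differed in this. Both riboflavin replicate 1 arrays were below 0 for 34 members (63.0%) against 33.2% of the expressed genes, and both replicate 2 arrays for 20 members (37.0%) against 36.1%. On riboflavin day 7 replicate 1, 18 members (33.3%) stood at -1 or lower against 11.1% of the expressed genes, a threshold chosen after the values were seen. The members' median ratio was -0.21 and 0.047 on riboflavin day 3 and -0.47 and -0.18 on riboflavin day 7, replicate 1 first. Their median fitted change over both days was -0.086, against -0.023 for all expressed genes, with 45 members (83.3%) and 249 genes (55.5%) below 0. Members of the first set share nearly the same profile, so they do not count as separate observations.

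**Figure D4:**
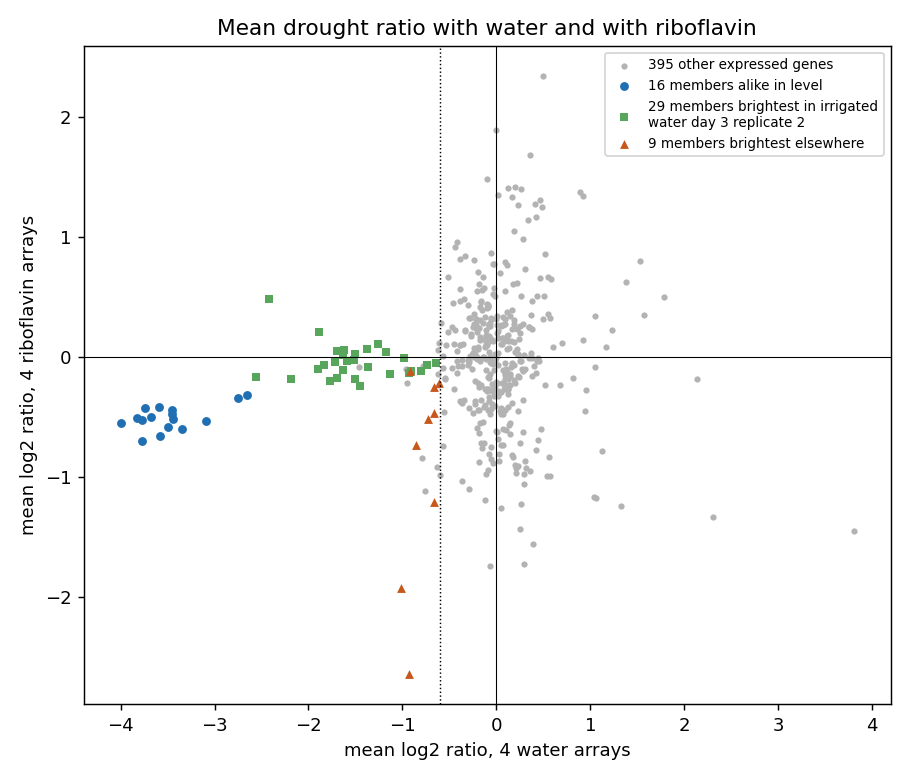
Mean deposited log2 ratio over the 4 riboflavin arrays (vertical axis) against that over the 4 water arrays (horizontal axis) for the 449 expressed genes. Grey points are the 395 other expressed genes, and the dotted line is the threshold of -0.6. The first set lies at -3.997 to -2.66 with water and -0.70 to -0.32 with riboflavin, and the lowest triangle is AGABI2DRAFT_139997 at -0.93 and -2.65.

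Most other members of the third set had riboflavin ratios of opposite sign between replicates. AGABI2DRAFT_133899 had riboflavin ratios of -2.40, -0.45, -2.57 and -2.30 and water ratios of -0.23, -0.60, -0.98 and -2.25. Its irrigated net signal was 930 and 1570 on the riboflavin replicate 1 arrays and 198.5 and 235 on the replicate 2 arrays. Its ratio stayed below 0 on all 8 arrays, although its signal differed between the replicates. AGABI2DRAFT_136889 had ratios of -1.61, 1.48, -2.65 and -0.17 with riboflavin and -0.27, -0.64, -0.54 and -1.97 with water. Among all expressed genes its level was most like that of AGABI2DRAFT_136959 (r 0.949 over 16 channels), which lies just outside the threshold.

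AGABI2DRAFT_199236 and AGABI2DRAFT_135710 were the members with the steadiest water ratios and were also alike in level (r 0.963 over 16 channels). With water AGABI2DRAFT_199236 had ratios of -0.54, -0.60, -0.70 and -0.83 (SD 0.13). With riboflavin its ratios were -1.72, 1.05, -1.04 and 0.69. AGABI2DRAFT_135710 had water ratios of -0.58, -0.77, -0.61 and -0.49 (SD 0.12) and riboflavin ratios of -1.50, 0.93, -0.98 and 0.67. Both genes were thus below 0 on the riboflavin replicate 1 arrays and above 0 on the replicate 2 arrays. Their fitted riboflavin changes were -0.14 ± 0.27 and -0.10 ± 0.22 (SE, 4 arrays, adjusted p 0.936 and 0.951 by limma).

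AGABI2DRAFT_65847 ran the other way, with riboflavin ratios of 0.04, -3.03, 1.27 and -3.14. Its irrigated net signal was 366 and 198 on the replicate 1 riboflavin arrays and 588 and 343 on the replicate 2 arrays. Water ratios of this gene were -0.24, -1.52, -0.82 and -0.08, and with a normexp offset of 50 the last was 0.13. Its fitted riboflavin change was -1.01 ± 0.51 (SE, 4 arrays, adjusted p 0.653 by limma). AGABI2DRAFT_226130 had water ratios of -1.56, -0.34, -0.99 and -0.01 and riboflavin ratios of -2.20, 0.21, -0.43 and 0.34. AGABI2DRAFT_138931 had -0.87, -1.04, -0.26 and -0.47 with water and -1.03, 0.39, -1.02 and -0.23 with riboflavin. AGABI2DRAFT_151612 had -1.34, -1.91, -0.08 and -0.36 with water, and its riboflavin ratios lay between -0.46 and 0.21. For the last pair of genes no water array had a drought channel well above background.

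**Figure D5:**
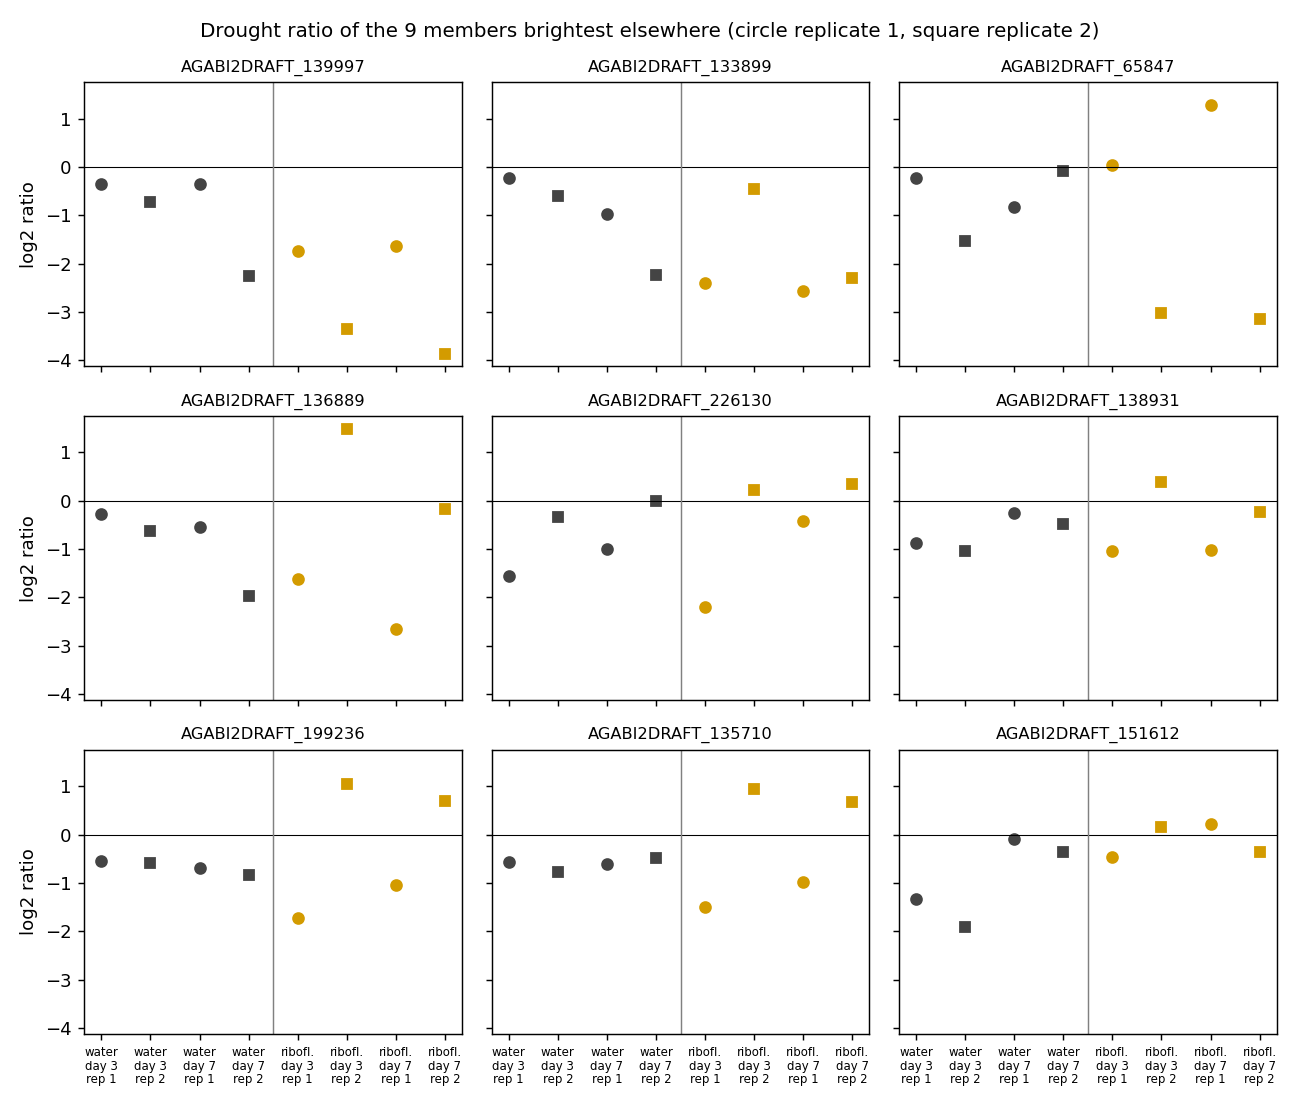
Deposited log2 ratio (vertical axis) of the 9 members brightest outside the irrigated channel of water day 3 replicate 2, on each of the 8 arrays (horizontal axis, water in grey and riboflavin in yellow). AGABI2DRAFT_139997 and AGABI2DRAFT_133899 are below 0 on all 8 arrays, and AGABI2DRAFT_199236 and AGABI2DRAFT_135710 are below 0 on both riboflavin replicate 1 arrays and above 0 on both replicate 2 arrays.

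At the threshold of -0.6 the members and the genes left out differed little. Just inside stood AGABI2DRAFT_135710 (mean water ratio -0.61), AGABI2DRAFT_195951 (-0.64) and AGABI2DRAFT_138931 (-0.66). Just outside stood AGABI2DRAFT_214792 (-0.59), AGABI2DRAFT_136959 (-0.57) and AGABI2DRAFT_191025 (-0.55), each below 0 on all 4 water arrays. The mean of AGABI2DRAFT_195951 rested on water day 3 replicate 2 (-2.27), since its other water ratios were -0.17, -0.03 and -0.09. The expressed gene outside the members with a level most like AGABI2DRAFT_121746 was AGABI2DRAFT_188538 (r 0.927 over 16 channels). It missed the rule through a ratio of 0.088 on water day 3 replicate 1, and its other water ratios were -3.32, -1.16 and -1.45.

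The gene length of the members had a median of 1220.5 bases, against 1417 for the other expressed genes and 1497 for all genes with a locus tag. In the first set, AGABI2DRAFT_120132, AGABI2DRAFT_123230, AGABI2DRAFT_114687, AGABI2DRAFT_114629 and AGABI2DRAFT_115378 were each 1110 bases long, and AGABI2DRAFT_116162 was 1107. Lengths of 781 (AGABI2DRAFT_192160, AGABI2DRAFT_206268) and 2485 bases (AGABI2DRAFT_146556, AGABI2DRAFT_197138) also recurred. Whether such members or their probes are alike in sequence was not tested. No pair of members was adjacent in the order of the reference table, where the closest pair had 3 genes between them. Spots of the members were scattered over the array, in grid rows 2 to 190 of 192. For the 19 members printed on 2 spots, the median difference in log2 ratio between the spots was 0.117 to 0.222 on the 8 arrays. The largest difference between the spots of a member was 2.14. Of the gene lists defined by symbol, laccases and peroxidases had 6 genes on the array and 0 expressed, heat shock proteins 1 and 0, and a short list of cytochrome and ATP synthase genes 2 and 1, the cytochrome c gene CytC2, with a mean water ratio of 1.53. The other 4 expressed genes with a symbol also belong to the respiratory chain, were in none of the lists and are no members. They are SDH1 and SDH2 of succinate dehydrogenase, with mean water ratios of -0.12 and 0.26, and NdufS7 and NdufA1 of NADH dehydrogenase, with 0.54 and 0.52. The lists for hydrophobins, plant wall enzymes, trehalose and mannitol, the riboflavin pathway, urea and nitrogen, and cytochrome P450 had 0 named genes on the array. No list could hold a member, since no member has a symbol. With symbols for only 88 genes on the array, these counts do not cover genes of the same kinds without a symbol.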

How the data were processed

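RNA from irrigated and droughted mycelium was hybridized to 8 2-colour Agilent arrays on 1 slide. Per the file headers, the scanner tables were made with Feature Extraction 11.5.1.1. They hold deposited spot and local background signals as intensity values, processed intensity values after the software's own background subtraction and dye normalization, and a log10 ratio (red over green) that served only to check direction. The authors also deposited a value table of log2 ratios, likewise red over green. The submitters' processing notes name limma, and normexp with an offset of 16 followed by loess matched that table to within 5e-10, so its scale, direction and lack of centring between arrays are known. Its column medians lay between -0.0031 and 0.0061.

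Ratios were turned to drought over irrigated from the dyes in the labels. Per-array ratios in the text are the deposited ones, averaged over the spots of a gene. For the tests, median signals were corrected by normexp with an offset of 50 and normalized by loess with control spots at weight 0 (limma 3.58.1, R 4.3.3). Spots marked as outliers by the scanner software were left out (0 to 4 gene spots per array), and 4 expressed genes were fitted on fewer than 8 arrays. The limma model (lmFit, eBayes) took all 8 arrays and the 449 expressed genes, with a term for each group and another for the dye orientation (residual degrees of freedom 3, prior 1.62). P-values were adjusted by Benjamini-Hochberg over the 449 genes, with calls at an adjusted value under 0.05. Normalized levels are the separate channels after loess and Aquantile. Bounds set the irrigated level against the drought level or the lowest level well above background, whichever was higher, in group means over 2 arrays. The fit was also run on simulated ratios with independent noise of the same spread for every gene. Replicate deviations shared between the riboflavin days were not simulated, so that run does not bear on them.

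Sample titles count the arrays of a group as replicates 1 and 2, but their descriptions give both the same biological replicate number. P-values thus reflect the spread between arrays alone, and part or all of it may be technical. Members and lists were chosen with earlier results of these data known. Named genes were the 10 members with the lowest mean water ratio, the 10 with the highest mean net signal, the 5 lowest (below 0 on all riboflavin arrays) and 5 highest by mean riboflavin ratio, the 5 with the smallest p and any called, the 3 on either side of the threshold and the 5 with the smallest SD with water. Other genes were named after their values were seen. Sequences, protein families and gene functions were not analysed here. Of the gene numbers on the array, 10348 matched a locus tag and 88 have a symbol, and no coordinates are given because no build is named for the array.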

Additional observations from a re-analysis of the deposited data

Results flagged for a closer look

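For some members, both riboflavin arrays of a day lay above 0 while both water arrays of that day lay below 0, and 4 of them are described here. Others on day 3 were AGABI2DRAFT_114559 (0.074 and 0.082 with riboflavin), AGABI2DRAFT_191066 (0.012 and 0.155) and AGABI2DRAFT_197138 (0.030 and 0.074). Such genes were not counted over all members or over the expressed genes. The difference between supplements was not tested for any of them, since the water ratios had chosen the members. On day 7, AGABI2DRAFT_120331 had a mean deposited log2 ratio of 0.665 over the 2 riboflavin arrays, from 0.31 and 1.02. Its water ratios were -3.09 and -1.93. Before normalization, its irrigated net signal on riboflavin day 7 replicate 1 (194) was above its drought net signal (132.5). AGABI2DRAFT_146556 had a mean of 0.37 on riboflavin day 7 and water ratios of -1.08 and -1.20. AGABI2DRAFT_140170 had a mean of 0.14 on riboflavin day 7 and water ratios of -1.22 and -0.57. On day 3, AGABI2DRAFT_121541 had a mean of 0.059 with riboflavin and water ratios of -0.07 and -1.53. The last 3 genes were not well above background in either channel of any riboflavin array, so the sign of their riboflavin ratios rests on signals near the background.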

How the results depend on the processing

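The count of genes called in the mean of the riboflavin days was 1 of 449, and that 1 was a member. It was 0, with 0 members, with the deposited ratios, the processed signals, median centring, the riboflavin arrays alone, an intensity trend with a robust fit and, chosen after seeing the data, a random block of supplement and replicate number. It was also 0, with 0 members, without the replicate block (the dye term). The dye term of the main fit equals replicate number and so ties the same-numbered arrays of all 4 groups. Replicate deviations of same-numbered arrays correlated at 0.918 between the riboflavin days, but at -0.145 to 0.0446 for the other pairs of groups. With all 10413 genes tested it was 6, and with each dye pair as 1 value 8. With the riboflavin replicate 2 arrays turned it was 19, of which 1 was a member, AGABI2DRAFT_199236 (-0.76, adjusted p 0.0386 by limma), and AGABI2DRAFT_139997 (0.51) and AGABI2DRAFT_65847 (1.44) changed sign. Leaving out 1 array at a time gave 0 to 1 calls and 0 to 1 members. On day 3 and day 7 the counts of 0 became 3 and 1 with all genes tested, with 1 member each, AGABI2DRAFT_139997. The difference between days kept 0 calls under all 18 alternatives run. By median centring 35 genes met the member rule and by a floor of 100 there were 25, all of them among the 54. The processed signals gave 71 genes (51 of them members), a floor of 20 gave 70 (54), and leaving out 1 water array gave 46 to 64 (43 to 54). With the processed signals the median of the members' mean riboflavin ratios was -0.60 in place of -0.18 and 6 members were below 0 on all riboflavin arrays. That number was also 6 with the replicate 2 arrays turned and 11 to 27 with 1 riboflavin array left out. The cause of these shifts was not tested. Signal over background limits the second set most, as 17 of its 29 members had an irrigated channel that was not well above background on any riboflavin array.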
